A study of Mus musculus with 11 samples.

Results

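Vascular smooth muscle cells (VSMCs) of the mouse liver were compared after 2 kinds of chronic injury, bile duct ligation (BDL) and repeated carbon tetrachloride (CCl4). The cells were wells of Smart-seq2 plates, chosen by their reads: at least 50000 reads on genes, at least 500 reads of Myh11, which encodes smooth muscle myosin heavy chain, and fewer than 100 reads summed over the fibroblast genes Pdgfra, Dpt and Clec3b. This selected 579 of the 1272 wells of injured mice, 367 after BDL and 212 after CCl4, out of 2292 wells with cells on all 6 plates. The same rule selected 353 wells of uninjured mice on the plates that held injured cells. Since measured values chose the wells, the levels of those 4 genes are a description and not a result.

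All mice carried the Pdgfrb-BAC-eGFP reporter, in which cells that express the PDGFRβ promoter are green, and the methods describe adult males on a C57BL/6 background. Livers were taken 14 days after BDL, after 6 weeks of CCl4 or without injury, and digested by the protocol the labels call PF. Cells that were green and lacked staining for CD45 and CD102, which mark leucocytes and endothelium, were sorted into 384-well plates. Plates 1, 2 and 4 held BDL and uninjured wells, and plates 3 and 5 held CCl4 and uninjured wells. No plate held both injuries, so that in the direct comparison injury and plate cannot be told apart, and the uninjured wells of each plate were used to check it.

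Smooth muscle cells form the wall of the hepatic artery, the portal vein and the larger central veins. They contract through actin and a smooth muscle myosin, relax under nitric oxide and cyclic GMP, and surround themselves with a basement membrane of type IV collagen and laminins. BDL dams bile and scars the portal tracts, whereas CCl4 is turned into a toxic radical by hepatocytes around the central vein and scars that region. Around the smallest vessels the smooth muscle layer gives way to pericytes, so that a gate on Myh11 can hold cells of both kinds.

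Reads were summed over the selected wells of each entry of a plate's layout, an entry being a named set of wells such as the first or second BDL animal of that plate. There were 5 BDL entries, of 58 to 110 wells and 22484256 to 46459308 reads, 4 CCl4 entries, of 22 to 92 wells and 9177146 to 39908086 reads, and 5 uninjured entries, of 59 to 83 wells and 25300051 to 35826337 reads. Entries are written as plate and number, so that BDL 1-2 is the second BDL entry of plate 1. Per-entry values below are in the order BDL 1-1, 1-2, 2-1, 2-2 and 4-1, then CCl4 3-1, 3-2, 5-1 and 5-2, and uninjured wells are given from plate 1 to plate 5. The labels do not say whether entries of the same name on plates 1 and 2 were separate mice, and p-values therefore measure only the spread between these entries. Levels are reads of a gene per 1000000 gene reads of the entry (RPM), a scale that is not per length.

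The label was checked against marker lists. The 6 smooth muscle markers, Myh11 among them, together stood at 38263 to 57695 RPM in BDL entries and 47613 to 60985 RPM in CCl4 entries. The markers of hepatocytes, cholangiocytes and mesothelium summed to at most 11.3, 2.71 and 6.23 RPM in any injured entry, and the Schwann cell marker Sox10 was at 0. Fibroblast markers summed to 31.0 to 587 RPM after BDL and 20.2 to 315 after CCl4. Pdgfra, Dpt and Clec3b, which the selection capped, are among them, so part of that sum was set by the selection. Endothelial markers summed to 3.92 to 96.2 RPM after BDL and 8.38 to 18.2 after CCl4. The 8 stellate cell markers summed to 784.5 to 1198 RPM after BDL and 595 to 851 after CCl4, most of it from Ecm1, which encodes an extracellular matrix protein and stood at a mean of 781 ± 116 RPM after BDL (SD, n = 5) and 526.2 ± 67.1 after CCl4 (SD, n = 4). Just outside the selection stood wells with 491 Myh11 reads, with 100 reads of the fibroblast genes or with 47946 gene reads, and just inside it wells with 511, 89 and 58727. The rule took 34.3% to 87.5% of the readable wells of a BDL entry and 27.8% to 72.4% of a CCl4 entry. BDL 2-1 stood apart from the other BDL entries, with a median of 2310 genes per well against 3842 to 4197 in the other 4.

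Across 12307 genes, BDL and CCl4 entries were compared with the edgeR quasi-likelihood test, and no gene passed a Benjamini-Hochberg adjusted p of 0.05. The smallest adjusted p, 0.0701, was that of Sparcl1. At an unadjusted p under 0.05, 406 genes (3.3%) were higher after BDL and 353 (2.87%) lower, and DESeq2 on the same sums called 92 genes (0.748%), 64 higher and 28 lower. All 5 BDL entries lay above all 4 CCl4 entries for 201 genes (1.63%) and below them for 178 (1.45%).

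When each injured entry was set against the uninjured wells of its own plate, no gene passed either, among 13074 tested by edgeR. Unadjusted, 279 genes were higher after BDL relative to CCl4 and 217 lower, and DESeq2 called 157. The uninjured wells themselves, compared between plates 1, 2 and 4 and plates 3 and 5, gave 0 calls by edgeR, 421 genes at an unadjusted p under 0.05 and 46 calls by DESeq2. Genes are therefore given below with their per-entry values, and differences that missed the adjusted threshold are described and not called.

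Sparcl1, which encodes a secreted matricellular glycoprotein of the SPARC family, had the smallest p of all genes in the direct comparison. Its gene lies on chromosome 5 at 104079108 to 104114088 of GRCm38.p6. The BDL entries held 16135, 14144, 13025, 14984 and 15038 RPM of Sparcl1, and the CCl4 entries 8073, 8586, 7147 and 7050. Uninjured wells held 6979, 6262, 7622, 7367 and 7207 RPM on plates 1 to 5. Every BDL entry lay above every other entry, and the CCl4 entries lay close to the uninjured ones.

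Against uninjured wells of the same plate, Sparcl1 rose after BDL by 1.19 on the log2 scale (SE 0.13; edgeR, adjusted p = 0.0158), the only gene to pass (0.00765% of the genes tested, with 550 genes, 4.21%, higher and 349, 2.67%, lower at an unadjusted p under 0.05). The ratio to the uninjured wells of the plate was 2.03 to 2.39 in the 5 BDL entries and 0.978 to 1.13 in the 4 CCl4 entries. The call did not hold under every alternative. It was made under 9 of 21, and without BDL 1-1, BDL 1-2, BDL 2-1, BDL 2-2 or CCl4 3-1 the adjusted p was 0.077, 0.0522, 0.0528, 0.0661 and 0.0562 by the edgeR quasi-likelihood test. Without plates 1 to 5 in turn it was 1, 1, 0.166, 0.0566 and 0.0819, by edgeR on fewer entries. With entries of the same name on plates 1 and 2 joined, as they would be if they came from the same mice, it was 0.612 by edgeR. The log2 fold change stayed between 1.12 and 1.22 throughout.

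In the direct comparison, Sparcl1 was 0.95 higher on the log2 scale after BDL (SE 0.12, edgeR adjusted p = 0.0701). Relative to uninjured wells the difference was 1.10 (SE 0.20, edgeR adjusted p = 0.695), and uninjured wells of the BDL and CCl4 plates differed by -0.12 (SE 0.15). After CCl4 the change from uninjured wells was 0.08 (SE 0.15). The signal came from nearly every cell: 366 of 367 BDL wells, 210 of 212 CCl4 wells and 352 of 353 uninjured wells held reads of it, and the median well of an entry held 10996 to 16038 RPM after BDL and 6796 to 8269 after CCl4. No well gave more than 8.56% of an entry's Sparcl1 reads.

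Wells of the same entries that had at least 50000 gene reads but under 500 of Myh11 gave a background for this gene. There were 10 to 136 such wells in a BDL entry and 35 to 123 in a CCl4 entry, and BDL 2-2 and BDL 1-2 rest on 10 and 15. There Sparcl1 stood at 1821, 1979, 2161, 2013 and 1630 RPM after BDL and at 1049, 2287, 620 and 1933 after CCl4. The 2 sets overlapped. The injuries differed by 0.55 on the log2 scale of means in those wells and by 0.93 in the smooth muscle wells. The gap of 0.37 between the 2 kinds of wells was not separated by an exact permutation test over entries (p = 0.349, adjusted over 16 genes 0.529).

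**Figure D1:**
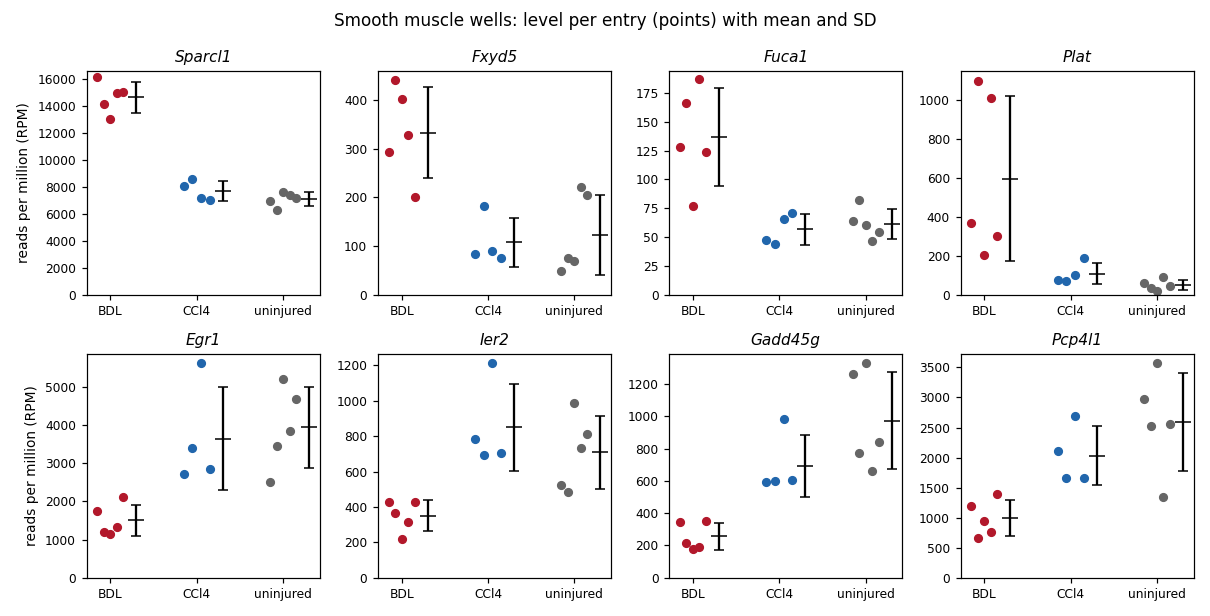
Level in RPM (gene reads per 1000000, y axis) of 8 genes in smooth muscle wells, each point 1 entry, with mean and SD beside the points; BDL has 5 entries, CCl4 4 and uninjured 5. Sparcl1 lay between 13025 and 16135 RPM in BDL entries and at most at 8586 in the others, while Egr1, Ier2, Gadd45g and Pcp4l1 lay lower in all BDL entries than in all CCl4 entries.

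Beyond Sparcl1, the genes that follow were chosen after their values were seen. They are the 12 in each direction with the smallest unadjusted p among genes whose BDL and CCl4 entries did not overlap and which reached 20 RPM in the higher injury, so that their separation is a description. Among the genes higher after BDL, Plat, which encodes tissue plasminogen activator, stood at 368, 1097, 205, 1010 and 300 RPM after BDL and at 75.2, 70.5, 98.6 and 186 after CCl4. Uninjured wells held 58.3, 35.0, 20.5, 90.8 and 41.7 RPM, so all 9 injured entries lay above the uninjured wells of their plate, by 3.30 to 28.9 times after BDL and 2.36 to 4.46 times after CCl4. In the wells with little Myh11 the order of the means was turned, at 455 RPM after BDL and 660 after CCl4. The entries overlapped there, at 293 to 575 RPM after BDL and 462 to 785 after CCl4.

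Fxyd5, a regulatory subunit of the sodium pump, stood at 293, 440, 403, 327 and 202 RPM after BDL and at 82.4, 183, 90.2 and 74.8 after CCl4. The lowest BDL entry and the highest CCl4 entry were close, and on plates 4 and 5 the uninjured wells, at 220 and 205 RPM, were as high as BDL 4-1. Hip1, which links clathrin coats to actin, stood at 227, 302, 267, 255 and 255 RPM after BDL and at 151, 128, 167 and 154 after CCl4. Its BDL entries were 1.53 to 2.21 times the uninjured wells of their plate and its CCl4 entries 0.770 to 0.913 times. The phosphatase gene Ptpn9 differed by 1.23 on the log2 scale in the direct comparison (SE 0.24), the tetraspanin Tspan4 by 0.99 (SE 0.21) and the oncostatin M receptor Osmr by 1.59 (SE 0.35).

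Fuca1, the lysosomal glycosidase alpha-L-fucosidase, stood at 128, 166, 76.9, 187 and 124 RPM after BDL and at 47.4, 43.5, 65.4 and 70.8 after CCl4. The gap between the lowest BDL entry and the highest CCl4 entry was narrow. Fuca1 reads were seen in 216 of 367 BDL wells, 62 of 212 CCl4 wells and 109 of 353 uninjured wells.

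Pithd1 differed in another way. It stood at 75.8, 65.3, 69.6, 92.5 and 56.4 RPM after BDL, at 25.4, 44.9, 33.4 and 21.4 after CCl4 and at 51.8 to 83.6 in uninjured wells. Here the CCl4 entries were the ones that lay apart, and the BDL entries overlapped the uninjured ones.

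The cartilage and bone matrix genes Acan and Dmp1 were read in a share of the BDL wells. Acan, on chromosome 7 at 79053226 to 79115099, encodes aggrecan, a large proteoglycan of cartilage that is also found in vessel walls. It stood at 180, 312, 266, 227 and 169 RPM after BDL and at 13.0, 62.3, 0 and 40.5 after CCl4, and in uninjured wells between 0.0395 and 38.2. The groups did not overlap, and Acan was read in 214 of 367 BDL wells, 40 of 212 CCl4 wells and 34 of 353 uninjured wells. The wells with little Myh11 held at most 1.33 RPM of Acan in any injured entry.

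The difference in Acan was 3.03 on the log2 scale (SE 1.00, edgeR adjusted p = 0.616). Dmp1, a matrix protein of bone and dentin, was read in 80 BDL wells, 5 CCl4 wells and 12 uninjured wells. It stood at 39.5, 102, 102, 21.5 and 18.9 RPM after BDL and at 0.0513, 3.28, 0 and 0.218 after CCl4. A single well gave up to 77.9% of the Dmp1 reads of a BDL entry, and so its level rests on few cells. Relative to uninjured wells the difference of Dmp1 was -0.59 on the log2 scale, of the opposite sign to the direct 5.95. That relative difference changed its sign in 8 of 21 alternatives. Of 18 genes of this kind, listed after the data had been seen, 8 were expressed enough to test. Of these, 3 were higher and 0 lower at an unadjusted p under 0.05, against 3.3% and 2.87% of all genes. Dmp1 passed the filter on low counts only through its BDL entries and so could only count as higher. The count is a description.

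Serpina3n, an acute phase serpin, was also higher in the BDL entries, at 188, 332, 203, 398 and 223 RPM, against 49.5, 1.15, 14.5 and 120 after CCl4. Uninjured wells held at most 13.2 RPM, and the CCl4 entries also lay above those of their plate, by 5.07 to 240 times against 16.9 to 1401 times after BDL. These ratios rest on few reads and few wells. The uninjured wells of plates 1, 3 and 5 held 6, 7 and 13 reads, and 1 well gave 89.5% and 91.4% on plates 2 and 4. A single well gave 31.1%, 37.0%, 58.8% and 98.5% of the reads of CCl4 3-1, 3-2, 5-1 and 5-2, and at most 28.5% of a BDL entry's. Relative to uninjured wells the difference between the injuries was -0.38 (SE 1.89), of the opposite sign to the direct 2.54 (SE 0.88). The wells with little Myh11 held far more of it, a mean of 3005 RPM after BDL and 1374 after CCl4, and the part of reads carried over from such wells was not tested.

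Among the genes lower after BDL, immediate early genes stood out. Egr1, an early growth response transcription factor, stood at 1744, 1187, 1139, 1338 and 2104 RPM after BDL and at 2726, 3387, 5630 and 2837 after CCl4. Ier2 stood at 428, 363, 220, 314 and 426 RPM after BDL and at 786, 693, 1214 and 704 after CCl4. The injuries did not overlap for either gene, but part of the gap was also present without injury, since uninjured wells of the BDL plates were lower than those of the CCl4 plates by -0.61 for Egr1 and -0.64 for Ier2 on the log2 scale. Relative to uninjured wells the differences were -0.55 (SE 0.38) and -0.53 (SE 0.34). The same direction was seen in the wells with little Myh11, where Ier2 stood at 269 to 446 RPM after BDL and 668 to 1056 after CCl4.

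Gadd45g, a stress sensor that slows growth, stood at 345, 213, 181, 192 and 349 RPM after BDL, at 592, 596, 980 and 604 after CCl4 and at 1260, 775, 1327, 662 and 839 in uninjured wells. The BDL entries were lowest, and the CCl4 and uninjured entries overlapped. Every BDL entry lay at 0.169 to 0.528 times its plate's uninjured wells. The CCl4 entries lay at 0.446 to 1.17 times those of their plate, with 1 of 4 above them, so the ratios of the 2 injuries overlapped. Pcp4l1, a small protein of the calmodulin-binding PCP4 family, stood at 1196, 670, 950, 762 and 1394 RPM after BDL and at 2108, 1667, 2696 and 1667 after CCl4. Uninjured wells held 1345 to 3578 RPM, and the lowest of them, on plate 4, lay below BDL 4-1. Of 367 BDL wells 337 held Pcp4l1 reads.

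The mitochondrial protein gene Chchd10 stood at 17.0, 17.9, 38.5, 32.0 and 26.3 RPM after BDL and at 75.8, 93.1, 93.9 and 51.7 after CCl4. Slc5a3, the sodium and myo-inositol cotransporter, stood at 30.9, 22.7, 29.8, 19.96 and 38.4 RPM after BDL and at 127, 50.8, 93.2 and 45.7 after CCl4. The CCl4 entries lay within the range of uninjured wells for Chchd10, 43.9 to 162 RPM. For Slc5a3 that range was 66.9 to 141 RPM, and CCl4 3-2 and 5-2 lay below it. Mat2a, which makes S-adenosylmethionine, stood at a mean of 159.5 ± 37.8 RPM after BDL (SD, n = 5) and 322 ± 28.1 after CCl4 (SD, n = 4), and Tpst1, a tyrosine sulfotransferase of the Golgi, at 106 ± 15.6 and 229 ± 66.8. The other genes in this direction were Endod1, Rassf3 and Hdhd2, at -0.66, -0.94 and -0.96 on the log2 scale.

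**Figure D2:**
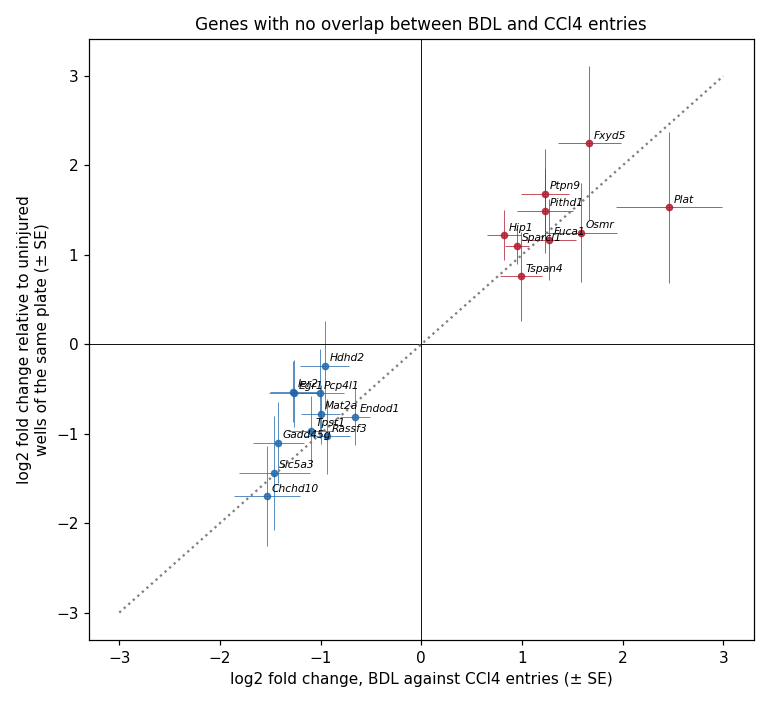
Direct log2 fold change of BDL against CCl4 entries (x axis) and the same difference taken relative to uninjured wells of each plate (y axis), with SE bars, for 20 of the 24 genes chosen by their separation in the direct comparison; Adam23 and Dmp1, whose values exceed the axes, and 2 genes not reported here are not drawn. The dotted line marks equal values: Sparcl1 lies at 0.95 and 1.10, whereas Egr1 and Ier2, at -1.26 and -1.27, move to -0.55 and -0.53.

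Gene lists for the functions of smooth muscle were then described by the direct comparison. Their counts at an unadjusted p under 0.05 stand beside shares of 3.3% higher and 2.87% lower over all 12307 genes. The contractile apparatus as a list showed little separation. Of its 22 genes, 0 were higher and 1 lower at an unadjusted p under 0.05. None passed edgeR's adjusted threshold or that of DESeq2, and the median difference was -0.10. Acta2, smooth muscle actin, stood at 28682, 23127, 30837, 26602 and 33755 RPM after BDL and at 34602, 29636, 28256 and 28002 after CCl4. The ranges overlapped widely, as they did for Myl9 and Tpm1. The member at an unadjusted p under 0.05 was Myl6, an essential light chain of smooth muscle and non-muscle myosin. It stood at 508, 452, 693, 482 and 685 RPM against 882, 740, 778 and 785, without overlap. Its ratio to the uninjured wells of the plate was 0.496 to 0.925 after BDL and 0.80 to 1.14 after CCl4.

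Calcium handling and ion channel genes gave 0 of 18 in either direction at an unadjusted p under 0.05, with a median of -0.11 and no DESeq2 call. Phospholamban, Pln, which restrains the calcium pump of the sarcoplasmic reticulum, stood at a mean of 979 ± 254 RPM after BDL (SD, n = 5) and 1143 ± 63.1 after CCl4 (SD, n = 4). Smooth muscle transcription factors gave 0 higher and 1 lower of 15, and Notch pathway genes 0 and 1 of 11. Notch3, the receptor that maintains arterial smooth muscle, stood at 790 ± 169 and 668 ± 309 RPM. These differences were smaller than the spread between entries.

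Vasoactive receptors and the cyclic GMP pathway had 4 of 19 genes higher and 1 lower at an unadjusted p under 0.05. The shares over all genes were 3.3% and 2.87%. Ednra, the endothelin A receptor, stood at 652, 1274, 359, 1127 and 344 RPM after BDL and at 334, 368, 335 and 560 after CCl4. Only BDL 1-1, 1-2 and 2-2 lay above the CCl4 range. Pde3a, a phosphodiesterase that degrades cyclic AMP, was the one member without overlap, at 238, 212, 301, 225 and 181 RPM against 127, 164, 147 and 113. The uninjured wells held 170 to 202 RPM of Pde3a, above all CCl4 entries. The soluble guanylate cyclase subunits Gucy1a3 and Gucy1b3 differed by -0.09 (SE 0.14) and 0.09 (SE 0.21).

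In the direct comparison, basement membrane genes had the most members on one side among the matrix lists, 7 of 20 higher after BDL and 0 lower at an unadjusted p under 0.05, with 0 past edgeR's adjusted threshold and 0 by DESeq2. Of all genes, 3.3% were higher and 2.87% lower at that unadjusted threshold. The median of the list was 0.41 in the direct comparison, 0.36 relative to uninjured wells and -0.10 between the uninjured wells of the 2 plate kinds. Against uninjured wells it was 0.48 after BDL, with 7 higher and 0 lower, and 0.08 after CCl4, with 1 and 0. Over all genes these medians were 0.02, 0.05, 0.03, 0.04 and 0.00. Of all 13074 genes, 550 were higher and 349 lower than in uninjured wells after BDL at that threshold. After CCl4 these counts were 251 and 230, so the counts of the 2 injuries have unlike backgrounds. Markers of other cells also had medians above 0 after BDL. The 6 stellate cell markers that could be tested had medians of 0.39 directly, 0.68 relative to uninjured wells, 0.77 after BDL and -0.35 after CCl4, and the 11 mural genes of small vessels 0.21, 0.37, 0.53 and 0.16. Their part in the basement membrane values was not tested.

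Col18a1, a collagen of vascular basement membranes and the source of endostatin, stood at 914, 1286, 763, 883 and 1328 RPM after BDL and at 659, 677, 467 and 762 after CCl4. BDL 2-1 and CCl4 5-2 almost touched. Lama5, laminin alpha 5, stood at 458, 504, 424, 524 and 525 RPM after BDL and at 319, 388, 390 and 403 after CCl4, also without overlap. Its ratio to the uninjured wells of the plate was 0.875 to 1.54 after BDL and 0.76 to 0.93 after CCl4. BDL 1-1 and 1-2 lay below those wells, as did every CCl4 entry. The type IV collagen chains Col4a1 and Col4a2, which are transcribed from a shared promoter, differed by 0.67 (SE 0.25) and 0.58 (SE 0.26), and Lamb2, laminin beta 2, by 0.36 (SE 0.16). In the wells with little Myh11, Col4a1 stood at a mean of 1574 ± 656 RPM after BDL (SD, n = 5) and 567.5 ± 230 after CCl4 (SD, n = 4), so that a difference in the same direction was also present outside the smooth muscle wells.

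**Figure D3:**
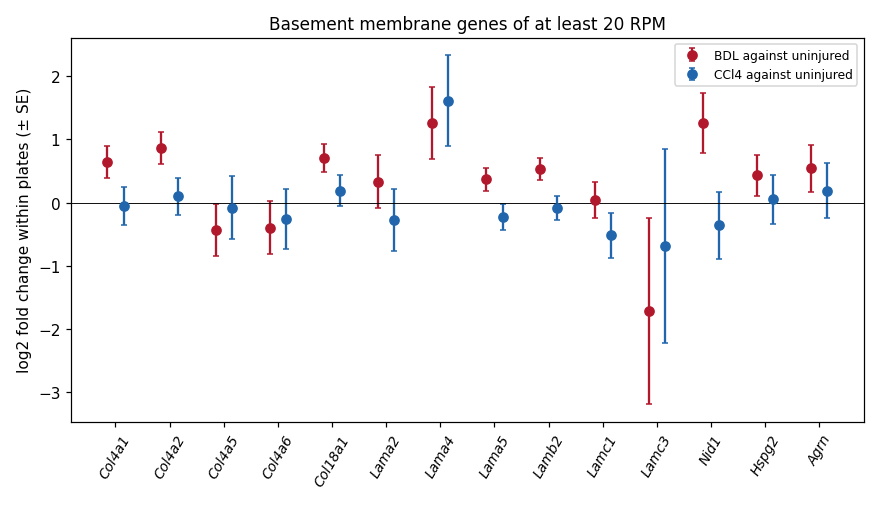
Log2 fold change (y axis, with SE bars) against uninjured wells of the same plate after BDL (red) and after CCl4 (blue) for basement membrane genes of at least 20 RPM. Col4a1, Col4a2, Col18a1, Lamb2 and Nid1 lay above 0 after BDL and within about 1 SE of 0 after CCl4; no gene in the plot passed edgeR's adjusted threshold.

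Interstitial collagens and their processing enzymes had 1 of 24 genes higher and 1 lower at an unadjusted p under 0.05 in the direct comparison, with a median of 0.30. Relative to uninjured wells their median was 0.46. Against uninjured wells it was 0.60 after BDL, with 6 higher and 1 lower, and 0.02 after CCl4, with 1 and 0. Over all 13074 genes these counts were 550 and 349 after BDL and 251 and 230 after CCl4. Col3a1 stood at 919, 522, 1486, 259 and 914 RPM after BDL and at 1202, 230, 886 and 455 after CCl4, and Col1a1 at a mean of 283 ± 138 (SD, n = 5) and 260 ± 163 (SD, n = 4). The member without overlap, P4ha1, a prolyl hydroxylase for collagen, ran the other way, at 32.9, 51.2, 36.0, 35.0 and 38.3 RPM against 57.7, 74.2, 75.1 and 67.7. The wells with little Myh11 held 7320 and 4189 RPM of Col1a1 in the mean, far above its level in the smooth muscle wells.

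Among matricellular proteins and proteoglycans, 2 of 28 were higher and 1 lower, and the list includes Sparcl1 itself. Sparc, its closest relative, stood at 2388, 1917, 3161, 1605 and 1782 RPM after BDL and at 2681, 1733, 1738 and 1952 after CCl4. Those ranges overlapped, and the direct difference was 0.13 (SE 0.24). Igfbp7, a secreted protein of vessels that belongs to the IGF axis list, stood at 8976, 9467, 10298, 8451 and 10789 RPM against 6525, 4397, 5978 and 9357. CCl4 5-2 fell within the BDL range and the other 3 CCl4 entries below it. Against uninjured wells, Igfbp7 differed by 0.91 (SE 0.21) after BDL and 0.12 (SE 0.24) after CCl4.

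Timp1, an inhibitor of metalloproteinases, stood at 69.5, 26.4, 32.9, 18.4 and 50.6 RPM after BDL and at 21.6, 3.13, 1.82 and 4.58 after CCl4. It overlapped through CCl4 3-1. Timp1 was read in 185 of 367 BDL wells, 93 of 212 CCl4 wells and 136 of 353 uninjured wells. A single well gave 9.65% to 52.8% of the reads of a BDL entry and 13.2% to 59.5% of a CCl4 entry. CCl4 5-1 and 5-2 held only 38 and 42 reads, so that these levels rest on few cells. The wells with little Myh11 held 982 RPM after BDL and 924 after CCl4 in the mean, and the direct difference of 2.36 (SE 0.74) in smooth muscle wells was not seen there. The gap between the 2 kinds of wells was 2.84 on the log2 scale of means (exact permutation test, p = 0.0635, adjusted over 16 genes 0.145). Timp3, an inhibitor that stays bound to the matrix, stood at 1153 ± 104 RPM after BDL (SD, n = 5) and 1338 ± 258 after CCl4 (SD, n = 4).

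Immediate early genes formed the list with the most members lower after BDL, 7 of 15 and 0 higher at an unadjusted p under 0.05. The shares over all genes were 2.87% lower and 3.3% higher. In the list, DESeq2 called 2 genes. The median was -0.42 in the direct comparison but -0.37 between the uninjured wells of the 2 plate kinds, and -0.15 relative to uninjured wells with 0 of 15 in either direction. Fos stood at 7602, 7853, 4977, 6293 and 6130 RPM after BDL and at 7907, 10738, 10189 and 6805 after CCl4. Zfp36, which destabilizes cytokine messages, did not overlap, at 1460, 1453, 772, 1489 and 1499 RPM against 1586, 1735, 2973 and 2151.

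Heat shock genes showed the reverse dependence on the plates. In the direct comparison 3 of 12 were lower, with a median of -0.30. Relative to uninjured wells 4 were lower with a median of -0.87, beside 217 of all 13074 genes. Uninjured wells of the BDL plates were higher by a median of 0.54. Hsp90ab1, a constitutive chaperone, stood at 1275, 1339, 1024, 1213 and 1346 RPM after BDL, at 1863, 1682, 2043 and 1462 after CCl4 and at 1480 to 2336 in uninjured wells. Dnajb1, a heat-induced co-chaperone, stood at 133, 77.1, 47.7, 82.1 and 121 RPM after BDL, at 207, 258, 328 and 130 after CCl4 and at 241 to 353 in uninjured wells. For Dnajb1, each BDL entry lay at 0.135 to 0.551 times the uninjured wells of its plate. The CCl4 entries lay at 0.4055 to 1.025 times those of their plate, with 1 of 4 above them.

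Of chemokines, cytokines and acute phase genes, 15 of 26 were expressed enough to test, 4 were lower and 0 higher at an unadjusted p under 0.05, and the median was -0.94. Between the uninjured wells of the 2 plate kinds the median was -0.56. Relative to uninjured wells it was -0.06, with 0 of 15 in either direction. Saa3, described next, passed the filter on low counts only through its CCl4 entries and so could only count as lower. The count is a description. Nfkbiz, an inducible regulator of NF-kappaB, stood at 278, 270, 144, 223 and 239 RPM after BDL and at 371, 434, 1065 and 339 after CCl4. Uninjured wells held 550 to 955 RPM, above every BDL entry and above CCl4 3-1, 3-2 and 5-2. The ratio to the uninjured wells of the plate was 0.260 to 0.506 after BDL and 0.355 to 1.115 after CCl4. Nfkbia and Cxcl1 were lower in the mean after BDL but overlapped.

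Saa3, an acute phase protein on chromosome 7 at 46711998 to 46719615, had no read in any of the 367 BDL wells and 467 reads in 150 of the 212 CCl4 wells, at 7.18, 4.51, 5.08 and 4.47 RPM. With a floor of 3 reads over the BDL wells together, this was at least 254-fold higher. The reads moved with the plate as well. Uninjured wells held 2.05 RPM on plate 3 and 13.0 on plate 5, against 0, 0 and 0.0305 on plates 1, 2 and 4. On plate 5 a single uninjured well gave 81.85% of the 336 reads, so that its level rests mostly on 1 well. Plates 3 and 5 held 42 and 75 wells with over 1000 Saa3 reads, up to 36459 in a well, whereas plates 1, 2 and 4 held none. The median smooth muscle well of plates 3 and 5 held 1 read. Reads carried between wells of a plate were not tested as a source.

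Genes of the circadian clock, a list made after the data had been seen, included 3 members higher in every BDL entry and 1 lower. Of all 12307 genes, 1.63% and 1.45% were separated in this way. The clock runs on a loop in which BMAL1, encoded by Arntl, and CLOCK bind E-box sequences and activate the Per and Cry genes, whose proteins then block them. A further arm consists of TEF, DBP and HLF, which bind D-box sequences. Of 19 clock genes, 4 were higher and 0 lower at an unadjusted p under 0.05, beside 3.3% and 2.87% of all genes. None of the 19 passed edgeR's adjusted threshold, 2 were called by DESeq2, and their median was 0.42. Relative to uninjured wells the median was 0.08, with 2 higher and 2 lower, beside 279 and 217 of all 13074 genes.

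Promoters of 16 of the 19 clock genes were matched in RefSeq's annotation of GRCm38.p6, and those of 2 genes of the separated set that carry such boxes are shown, for Tef the first of its 2 windows, with the matched letters in capitals. The window runs from 250 bases before to 50 after the annotated start. Searched on both strands, the E-box CACGTG was held by 7.15% of 32851 promoters and the D-box TTATGTAA by 0.938%, and among the 16 genes by 5 and 1. A match is a description of the sequence and not a bound site.
Per3, chr4:151044616-151044915, minus strand, 2 D-boxes: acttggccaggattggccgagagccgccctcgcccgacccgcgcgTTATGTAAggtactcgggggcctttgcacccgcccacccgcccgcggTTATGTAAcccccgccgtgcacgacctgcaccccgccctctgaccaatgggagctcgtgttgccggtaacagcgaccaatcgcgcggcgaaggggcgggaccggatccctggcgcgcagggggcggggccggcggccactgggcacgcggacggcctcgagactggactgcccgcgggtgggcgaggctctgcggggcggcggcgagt
Tef, chr15:81802423-81802722, plus strand, 1 E-box: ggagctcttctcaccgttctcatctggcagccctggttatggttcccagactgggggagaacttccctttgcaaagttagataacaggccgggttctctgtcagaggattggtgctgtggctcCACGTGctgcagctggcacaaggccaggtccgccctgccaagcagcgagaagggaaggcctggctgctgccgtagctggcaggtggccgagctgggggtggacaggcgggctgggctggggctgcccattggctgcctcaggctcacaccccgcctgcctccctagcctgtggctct

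Per3, a period gene of the repressor arm, stood at 69.1, 58.7, 155, 74.0 and 89.8 RPM after BDL, at 32.3, 11.8, 34.3 and 42.4 after CCl4 and at 27.9, 13.6, 39.3, 3.66 and 10.9 in uninjured wells. Tef stood at 192, 149, 139, 130 and 143 RPM after BDL, at 75.1, 33.9, 103 and 84.99 after CCl4 and at 36.1 to 95.7 in uninjured wells. Both were higher in each BDL entry than in the uninjured wells of its plate, and so were 2 of the 4 CCl4 entries for Per3 and 3 for Tef. For Tef the ratio to those wells was 1.56 to 3.26 after BDL and 0.937 to 2.64 after CCl4, and the difference of 1.03 (SE 0.29) in the direct comparison was 0.32 (SE 0.46) relative to uninjured wells. Per2 stood at 47.1, 82.1, 62.2, 62.7 and 65.0 RPM after BDL and at 27.6, 8.52, 22.9 and 34.0 after CCl4, but the uninjured wells of plate 2 held 73.6, and the difference relative to uninjured wells was -0.03 (SE 0.98).

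Arntl, of the activating arm, ran the other way, at 0.311, 20.1, 36.1, 34.0 and 10.0 RPM after BDL and at 41.2, 45.6, 76.4 and 58.5 after CCl4. It was read in 36 of 367 BDL wells, 55 of 212 CCl4 wells and 84 of 353 uninjured wells. Its unadjusted p was 0.107 in the direct comparison by edgeR. Nr1d1, which encodes a repressor of Arntl, overlapped, at a mean of 221 ± 50.1 RPM (SD, n = 5) and 241 ± 86.5 (SD, n = 4).

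Outside the smooth muscle wells, 1 of these 4 genes was without overlap. In the wells with little Myh11, Per3 stood at 104, 88.2, 156, 66.2 and 69.2 RPM after BDL and at 6.95, 2.77, 18.4 and 39.3 after CCl4. Tef, Per2 and Arntl overlapped there. The hour at which livers were taken is not given in the sources used here.

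**Figure D4:**
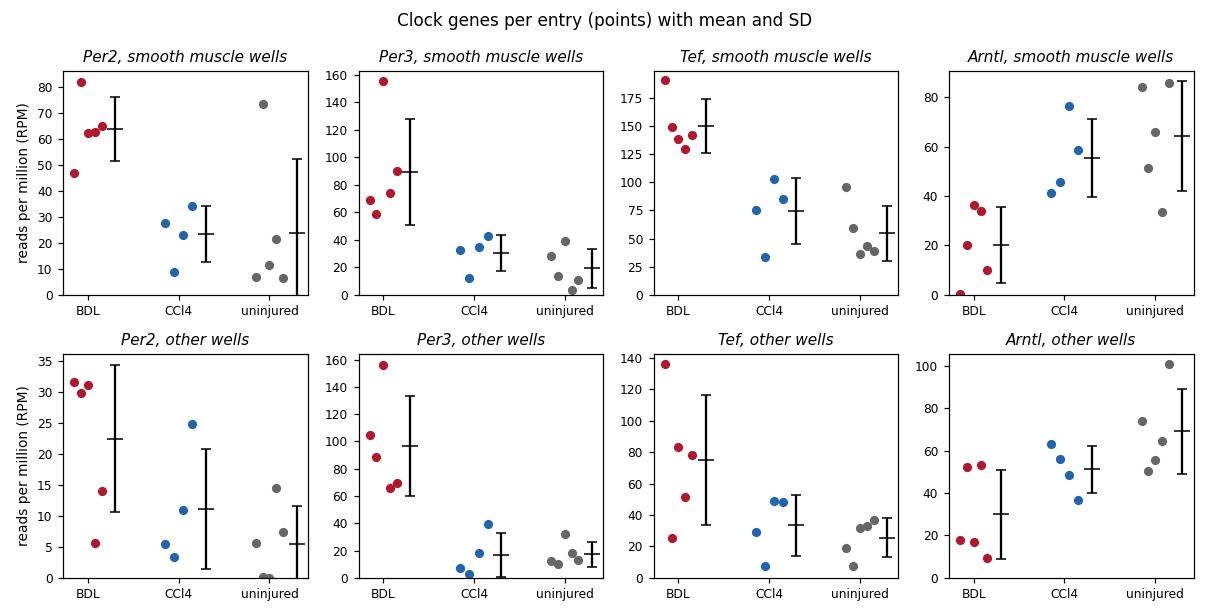
Levels in RPM (y axis) of Per2, Per3, Tef and Arntl in smooth muscle wells (top) and in wells of the same entries with under 500 Myh11 reads (bottom), each point 1 entry, with mean and SD beside the points. In smooth muscle wells the BDL and CCl4 entries do not overlap for any of the 4; in the other wells they do not overlap for Per3.

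Markers of mural cells around small vessels were examined, since the gate on Myh11 can take in pericytes. Rgs5 stood at 5747, 8673, 5499, 7617 and 2238 RPM after BDL and at 2011, 8060, 2366 and 2132 after CCl4, and Higd1b, a pericyte gene, at 293, 309, 674, 335 and 99.6 RPM against 74.2, 258, 67.5 and 72.2. The entries BDL 4-1 and CCl4 3-2 crossed the order for both genes. Wells with at least 100 Higd1b reads made up 30.1% ± 11.2 of a BDL entry (SD, n = 5) and 16.6% ± 9.29 of a CCl4 entry (SD, n = 4). The exact permutation test gave a two-sided p of 0.111, adjusted over 6 markers 0.333. With 5 and 4 entries this test can give no p under 0.0159, too large for a single marker to pass after that adjustment. It therefore does not show that the shares were alike. In uninjured entries the share was 16.9% ± 14.2 (SD, n = 5). Of the 11 mural genes 1 was higher and 0 lower at an unadjusted p under 0.05 in the direct comparison, and 2 and 0 after BDL against uninjured wells. BDL 1-1, 1-2, 2-1 and 2-2 held 2.07 to 18.8 times the Higd1b and 2.96 to 7.68 times the Rgs5 of their plate's uninjured wells, and BDL 4-1 0.313 and 0.338 times.

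Sparcl1 stood at 15038 RPM in BDL 4-1, where Rgs5 and Higd1b were lowest among BDL entries, and at 8586 RPM in CCl4 3-2, where they were highest among CCl4 entries. With wells of 100 or more Higd1b reads left out, 265 BDL and 170 CCl4 wells remained, and the direct difference of Sparcl1 was 0.92 (SE 0.14, edgeR adjusted p = 0.164). Its difference from uninjured wells after BDL was then 1.18 (SE 0.16, edgeR adjusted p = 0.0723). Wells were left out by Higd1b alone, and the part of small-vessel cells in the Sparcl1 values was not tested. For shares of wells with at least 100 reads of Rgs5, Pln, Tnnt2, Npnt or Cnn1, the smallest adjusted exact permutation p was 0.333. The same limit of so few entries holds for these markers.

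Of the remaining lists, interferon response and antigen presentation genes had 1 higher and 2 lower of 24 at an unadjusted p under 0.05, TGF-beta and BMP pathway genes 0 and 2 of 24, and the IGF axis 1 and 1 of 10. Antioxidant genes and metallothioneins had 3 higher and 0 lower of 16, glycolysis and hypoxia genes 1 and 0 of 16, cell cycle genes 2 and 0 of 14, and metalloproteinases with their inhibitors 3 and 0 of 16. Sod3, the extracellular superoxide dismutase of vessel walls, stood at 2276, 3098, 1894, 2457 and 2044 RPM after BDL and at 1662, 1900, 1672 and 2019 after CCl4, with an overlap of BDL 2-1 with the upper CCl4 entries. None of these lists held a gene past edgeR's adjusted threshold in the direct comparison.

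**Figure D5:**
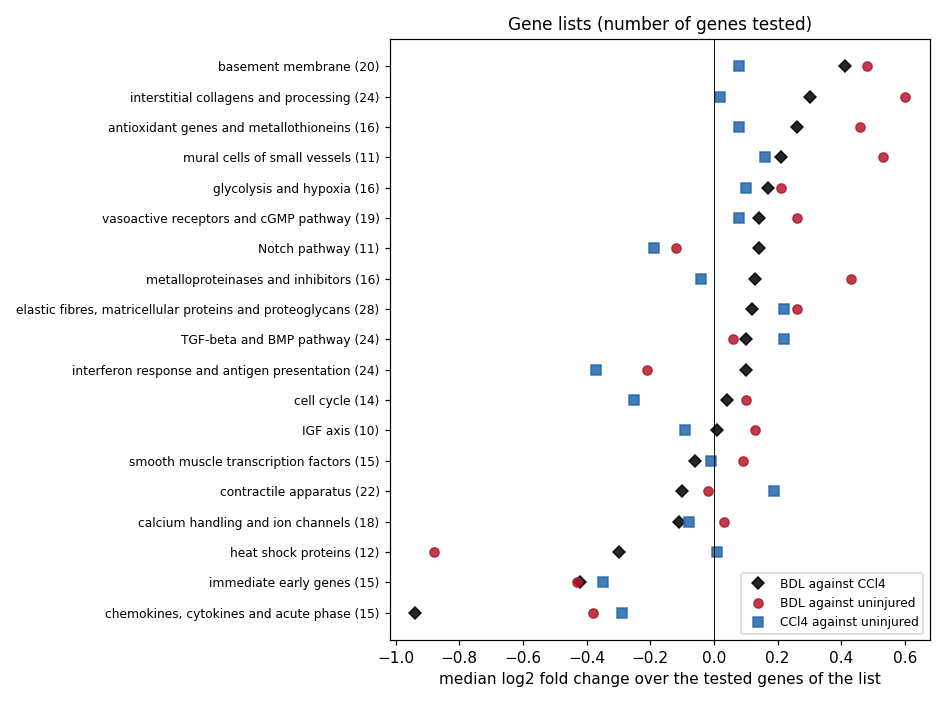
Median log2 fold change over the tested genes of 19 lists (number tested in brackets) in the direct comparison (black), after BDL against uninjured wells of the same plate (red) and after CCl4 against uninjured wells of the same plate (blue). The basement membrane list lies at 0.41, 0.48 and 0.08, and the contractile list at -0.10, -0.02 and 0.19; the points are medians without error bars and carry no test.

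A second readout existed for the CCl4 side alone. In the 10X libraries made with the same digestion, of 3 mice each, 1115 uninjured and 1714 CCl4 cells met a like rule of at least 1000 unique molecular identifiers (UMIs), at least 3 of Myh11 and at most 1 of the 3 fibroblast genes. Of their barcodes, 45 occurred in both libraries, 1 of them among the selected cells. Doublets were neither called nor removed in these libraries. With 1 library per condition there is no test, and the 95% Poisson intervals cover counting error only. Sparcl1 stood at 2101 UMIs per 1000000 (2055 to 2149) in uninjured and 2193 (2159 to 2228) in CCl4 cells. As in the plates, its level after CCl4 was close to that without injury.

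Other genes of the comparison did move between these 2 libraries. Fxyd5 stood at 42.7 UMIs per 1000000 without injury (36.3 to 49.97) and 115 (107 to 123) after CCl4, and Per3 at 9.53 (6.64 to 13.3) and 34.1 (30.0 to 38.7). Pcp4l1 stood at 2028 (1983 to 2075) and 1149 (1125 to 1174). The cells of the CCl4 library also held more of the small-vessel genes, with Rgs5 at 1082 (1049 to 1116) and 4143 (4096 to 4190) UMIs per 1000000, and the part of that mixture in the other values was not tested.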

How the data were processed

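Per the methods, the authors mapped the Smart-seq2 reads with STAR against mm10, to which the sequences of eGFP and of the spike-ins had been added. Reads of each gene were then tallied by rpkmforgenes, and the deposited Smart-seq2 tables hold these counts for every well, with no normalization or filter. For 10X, the authors deposited UMI counts made with Cell Ranger 2.1.0, per the labels. The eGFP row was left out and rows of the same gene name were summed (24490 rows, 23997 names).

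Reads of the selected wells were summed per layout entry and plate. The sums were normalized by TMM, filtered with filterByExpr and tested with the quasi-likelihood test of edgeR 4.0.16 (limma 3.58.1, R 4.3.3) with Benjamini-Hochberg adjustment, directly, and with plate as a term relative to uninjured wells. The relative test uses uninjured wells as 1 entry per plate. SEs were derived from the F statistic. DESeq2 1.42.0, no filter on low counts, wells thinned to 50000 reads, a stricter selection (1000 Myh11 reads, under 20 fibroblast gene reads), the study's quality rule (3 median absolute deviations), sums per plate, a random plate effect in limma and leaving out entries or plates were alternatives.

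Genes to be named were those called in the direct and relative comparisons, up to 12 each way, plus called list members and the 4 members of each list with the highest mean RPM. Since no gene was called, the 12 each way were chosen after their values were seen. The members and lists were chosen with earlier results of these data known. Some genes of these sets are not reported here. Scripts were tested on simulated data with 100 genes changed by 2-fold and 100 by 4-fold. At the adjusted threshold, edgeR recovered 8 and 52 of them in the direct comparison. Relative to uninjured wells it recovered 0 and 14. A missing call therefore does not show that a gene was alike in the 2 injuries. Plate 6, which held no injured wells, and the HSC-protocol libraries were not used here.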

Additional observations from a re-analysis of the deposited data

Results flagged for a closer look

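In groups of 4 or 5 entries, the highest or lowest entry was set against Dixon's 95% critical value for its gap to the next. Chance flags about 1 in 20 groups, and here 25 of 177 groups (14.1%) stood out. No cause was tested for any of them.

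Among CCl4 entries, CCl4 3-2 lay apart for Fxyd5 (183 RPM), Higd1b (258 RPM), Rgs5 (8060 RPM), Dmp1 (3.28 RPM) and the share of wells with at least 100 Higd1b reads (30.4%), each time as the highest. CCl4 3-1 was the highest for Timp1 (21.6 RPM) and the lowest for Lama5 (319 RPM). CCl4 5-1 was the highest for Gadd45g (979.9 RPM) and Nfkbiz (1065 RPM) and the lowest for median genes per well (2784). CCl4 5-2 was the highest for Ednra (559.8 RPM).

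Among BDL entries, BDL 4-1 was the highest for Tpst1 (133 RPM), Col4a1 (869.5 RPM) and the share of wells with at least 100 Npnt reads (10.9%). BDL 2-1 was the highest for Col1a2 (1220 RPM) and for the median share of spike-in reads (0.367%), and the lowest for median genes per well (2310).

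Among uninjured entries, plate 5 was the lowest for Osmr (19.97 RPM) and the highest for Mat2a (351 RPM) and Saa3 (13.0 RPM). A single well gave 81.85% of those Saa3 reads. Plate 4 was the highest for Dmp1 (3.97 RPM) and Serpina3n (13.2 RPM), where 1 well gave 100% and 91.4% of the reads. Plate 2 was the highest for Per2 (73.6 RPM), plate 1 the lowest for Fos (5728 RPM) and plate 3 the highest for the share of wells with at least 100 Npnt reads (23%).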

How the results depend on the processing

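In the direct comparison, edgeR called 0 genes and DESeq2 92. Thinned wells and the study's quality rule gave 1 call each (Sparcl1), the stricter selection 2 (Sparcl1 and Dmp1), and limma with plate as a random block 2 (Sparcl1 and Saa3, within-plate correlation -0.094). Leaving out an entry or a plate gave 0 to 5 calls, with the 5, Sparcl1, Dmp1, Tspan11 and Fxyd5 among them, without CCl4 3-2. Relative to uninjured wells, the 0 calls became 157 with DESeq2, 26 without the filter on low counts and 0 to 0 with an entry or plate left out. The uninjured wells of the 2 plate kinds gave 46 calls with DESeq2 and otherwise 0. Against uninjured wells, the 1 call after BDL became 293 with DESeq2, 158 without the filter, 0 with wells of 100 or more Higd1b reads left out, 0 with entries of the same name on plates 1 and 2 joined and 0 to 6 with an entry or plate left out. The 6 came without BDL 4-1. The 0 calls after CCl4 became 195 with DESeq2 and 29 without the filter. The cause of these shifts was not tested.

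Under 23 alternatives of the direct comparison, Sparcl1 stayed higher after BDL by 0.87 to 1.06 on the log2 scale, past the adjusted threshold in 6, with adjusted p from 3.42e-12 (DESeq2) to 0.917 (edgeR without plate 1). Of 49 genes examined, 46 kept their sign under every alternative run in the direct comparison and 37 in the relative one. The 49 include genes chosen for their separation in the direct comparison, whose sign there was largely fixed by that choice. Since edgeR called no gene in either comparison, there was no call to reverse. No gene among them with an unadjusted edgeR p under 0.05 changed its sign. No paired analysis was possible because BDL and CCl4 entries that share a number never share a plate, and nothing says that a number marks a shared animal. Leaving out Higd1b-rich wells, joining entries, and leaving out entries in the comparisons with uninjured wells were chosen after seeing the data. What depth limits was not tested beyond thinning the wells.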
